A study of Danio rerio with 2 samples.

Results

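The nuclear genes of oxidative phosphorylation were read in single cells of the zebrafish tail. They were chosen by symbol alone. Included was every feature that starts with ndufa, ndufb, ndufs, ndufv, ndufc, uqcr, sdh, atp5, or cox and a digit from 4 to 8. No measured value enters this rule, although it was chosen with earlier results of these data known. The rule took 101 of the 27421 features. Of these genes 43 belong to complex I, 9 to complex II, 8 to complex III, 22 to complex IV and 19 to complex V. The 11 assembly factors of complexes I and II with a matching name are included, as are both inhibitors of complex V, and the ndufa4 genes are counted with complex IV, where their human counterpart sits.

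Oxidative phosphorylation takes electrons from NADH and succinate through complexes I and II to complex III, cytochrome c and complex IV, which reduces oxygen. Complexes I, III and IV pump protons across the inner mitochondrial membrane, and complex V, the ATP synthase, makes ATP from their return. Most subunits are encoded in the nucleus, while a small core set is encoded in mitochondrial DNA. Several complex IV subunits exist as paralogues that mammals use by tissue, among them muscle types (COX6A2, COX7A1 and, in rodents, Cox8b) and the oxygen-related COX4I2 of lung and pericytes. Endothelial cells are known to draw much of their ATP from glycolysis, and blood stem and progenitor cells arise from haemogenic endothelium.

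All cells came from tails of AB embryos at 48 h post fertilisation that carried both TgBAC(isl1:TagRFP) and Tg(dab2:EGFP), so that TagRFP followed isl1 and EGFP followed dab2. The 2 libraries, 1 per group, hold live sorted cells, either positive for both reporters (labelled isl1-derived) or positive for EGFP without TagRFP (labelled other), and the number of embryos pooled is not given. TagRFP RNA ran against these labels, with 131 CPM (counts per 1000000 UMIs) over the library labelled other but 2.69 CPM over the one labelled isl1-derived, and isl1 did the same, with 132 CPM against 1.97 CPM. File names run against the labels as well. An exchange of the libraries was not tested, and it would invert the ratios between libraries. The libraries are therefore called by their labels, and in every pair of values below the library labelled isl1-derived comes first. Values are unique molecular identifiers (UMIs), 1 per captured RNA 3' end, summed over the cells of a class in a library, so gene length does not enter the level. With 1 library per group the libraries could not be compared by a test. Cell classes, which came from clustering these same cells, were compared within each library and were not tested either, and every interval is a 95% interval for counting error only.

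The libraries held 2072 and 730 barcodes with 26865577 and 5698957 UMIs and shared 0 barcodes. After filtering, 2015 and 701 cells remained, with a median of 9757 and 6612 UMIs. Cells were clustered without the 101 genes. Endothelial-like cells numbered 1226 and 534, haemogenic-like cells 122 and 37, and blood progenitor-like cells 440 and 41. The names rest on marker lists that include cdh5 and runx1, so the levels of these genes describe the classes and do not test the names. The endothelial cadherin gene cdh5 stood at 1379 and 1454 CPM in endothelial-like, 765 and 1083 CPM in haemogenic-like and 37.0 and 73.1 CPM in blood progenitor-like cells. The blood stem cell gene runx1 stood at 6.68 and 2.10 CPM, at 124 and 65.6 CPM and at 51.2 and 58.4 CPM in the same order. The haemogenic-like name rests on present endothelial and haemogenic markers, since none of them was among the leading 10 genes of its single cluster.

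Of the 101 genes 100 had a UMI in kept cells. The exception was ndufa9b, a paralogue of a complex I subunit gene, and 7 genes in all stayed under 100 UMIs. The most counted genes of complex I were ndufb8 (6975 UMIs), ndufb9 (6411 UMIs) and ndufa6 (6244 UMIs), and the least counted above 0 was ndufs1 (58 UMIs), which encodes the largest core subunit. In complex II the anchor gene sdhdb led with 3080 UMIs, before the iron-sulphur subunit gene sdhb with 3050 UMIs and the anchor gene sdhc with 2202 UMIs, while its paralogue sdhda had 4 UMIs. In complex III uqcrh (10600 UMIs), uqcrb (7879 UMIs) and uqcrq (6617 UMIs) led, and the core subunit gene uqcrc2b had the fewest (2191 UMIs). Complex IV was led by cox7c (23058 UMIs), cox4i1 (19762 UMIs) and cox6a1 (18470 UMIs), with ndufa4l2a at 1 UMI. Complex V was led by the proton ring gene atp5mc3b (33569 UMIs), the catalytic beta subunit gene atp5f1b (24430 UMIs) and atp5f1e (16898 UMIs), and its least counted member was atp5mea (3605 UMIs).

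Together the 101 genes made up a larger part of the RNA of blood progenitor-like cells than of endothelial-like cells, and haemogenic-like cells lay close to endothelial-like cells. Their summed share of all UMIs was 1.52% (1.51% to 1.53%) and 1.41% (1.40% to 1.42%) in endothelial-like cells. In haemogenic-like cells it was 1.65% (1.63% to 1.67%) and 1.61% (1.57% to 1.65%). In blood progenitor-like cells it was 2.42% (2.41% to 2.43%) and 2.33% (2.30% to 2.37%). Both libraries gave this order of the 3 classes, and the intervals of the classes did not overlap in either library. These intervals cover counting error of the pooled UMIs and not the spread between cells. The median share per cell was 1.34% and 1.28% in endothelial-like, 1.57% and 1.31% in haemogenic-like and 2.30% and 2.30% in blood progenitor-like cells. The quartiles per cell were 1.00% to 1.77% and 0.896% to 1.66% in endothelial-like cells. They overlapped those of haemogenic-like cells, at 1.11% to 1.81% and 0.946% to 1.64%. In blood progenitor-like cells the quartiles were 1.99% to 2.66% and 1.80% to 2.63%.

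Other classes lay on both sides. Erythroid-like cells (76 and 5 cells) had shares of 2.67% and 2.58%, and myeloid-like cells (24 and 3 cells) 2.55% and 2.70%. Neural-like cells, present in the library labelled other only (22 cells), had 2.43%. Mesenchyme-like cells had 1.91% and 1.66%. A cluster led by muscle genes, taken over both libraries together, had 2.17% and 1.9995%. Muscle RNA was high there mainly in the library labelled other, with mylpfa at 4.55 and 1185 CPM and actc1b at 34.2 and 1504 CPM. The cluster was left unnamed, since only 1 of the 16 listed muscle markers was present, against 11 of 20 endothelial ones. The mitotic blood progenitor-like cells (156 and 15 cells) had 2.54% and 2.48%, against 2.31% and 2.19% in the non-mitotic ones (284 and 26 cells), with mki67, a gene of cycling cells, at 397 and 422 CPM against 50.7 and 70.9 CPM.

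**Figure D1:**
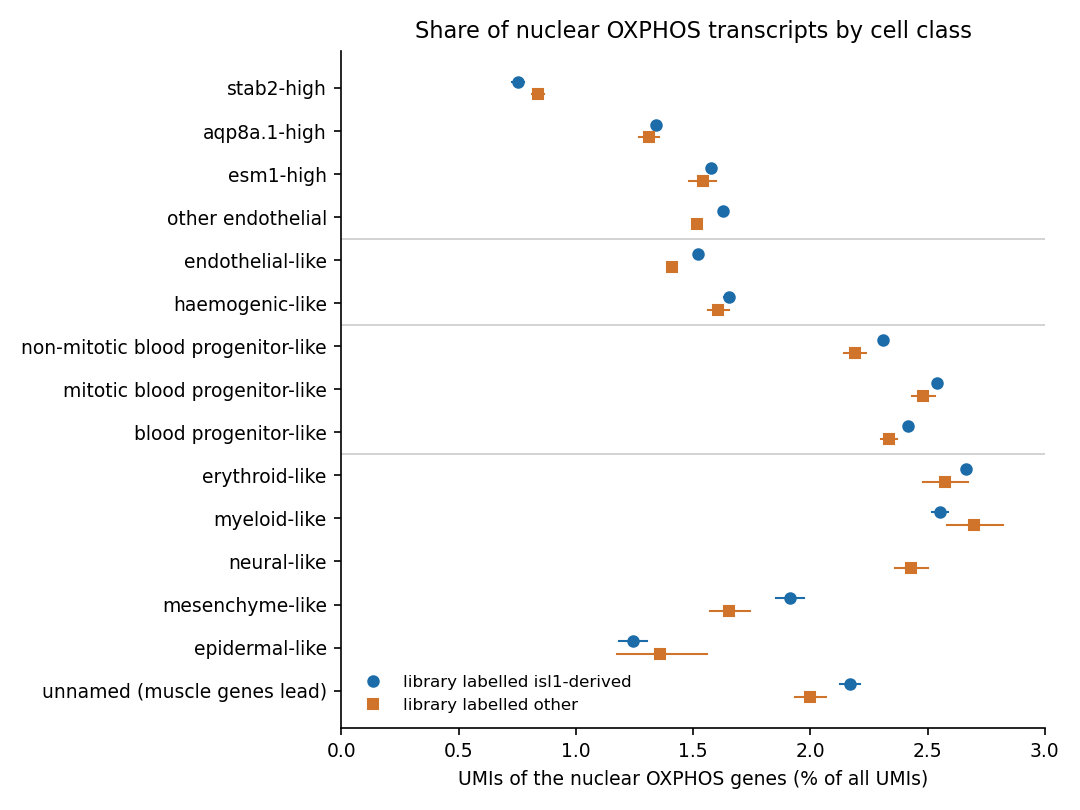
UMIs of the 101 nuclear oxidative phosphorylation genes as a percentage of all UMIs of a cell class (x axis), for the library labelled isl1-derived (circles) and the library labelled other (squares), with exact 95% binomial intervals as bars. The stab2-high endothelial subset sits lowest at 0.753% and 0.839%, haemogenic-like cells lie at 1.65% and 1.61%, and blood progenitor-like cells lie at 2.42% and 2.33%.

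Blood progenitor-like cells exceeded endothelial-like cells 1.59-fold (1.58 to 1.60) and 1.65-fold (1.63 to 1.68) in summed share. By complex the ratio was 1.35-fold and 1.39-fold for complex I and 1.32-fold and 1.29-fold for complex II. It was 1.58-fold and 1.59-fold for complex III, 1.61-fold and 1.66-fold for complex IV and 1.76-fold and 1.88-fold for complex V. In both libraries the intervals of complexes I and II overlapped, as did those of complexes III and IV. The interval of complex V lay above all others. Depth and the share of ribosomal protein genes moved with the classes. Median UMIs per cell were 7946 and 6594 in endothelial-like and 24552 and 19907 in blood progenitor-like cells, and ribosomal protein genes held 22.8% and 21.1% against 38.3% and 36.8% of UMIs. Among the UMIs outside ribosomal protein genes the share was 1.97% and 1.79% against 3.91% and 3.70%. Called doublets were few (15 and 8 barcodes), and the part of undetected doublets was not tested.

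Single genes were compared where the summed UMIs of both classes reached 100 in each library, called measured here, and a gene was counted as higher or lower at 1.5-fold or more in the same direction in both. Of the 101 genes 83 were measured between blood progenitor-like and endothelial-like cells, 36 of them higher in blood progenitor-like cells and 1 lower. Over all 5517 measured genes 18.8% were higher and 49.8% lower. The median log2 ratio was 0.57 and 0.61 over the 83 genes, and −0.71 in both libraries over all measured genes. By complex, 10 of 36 measured genes were higher in complex I, 1 of 5 in complex II, 5 of 8 in complex III, 8 of 15 in complex IV and 12 of 19 in complex V. Without ribosomal protein genes in the totals, which adds 0.32 to every log2 ratio in both libraries, 65 genes were higher. With every cell thinned to 2000 UMIs 20 of the 50 still measured were higher. Shares over all genes are not given for these settings, so these counts have no background.

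**Figure D2:**
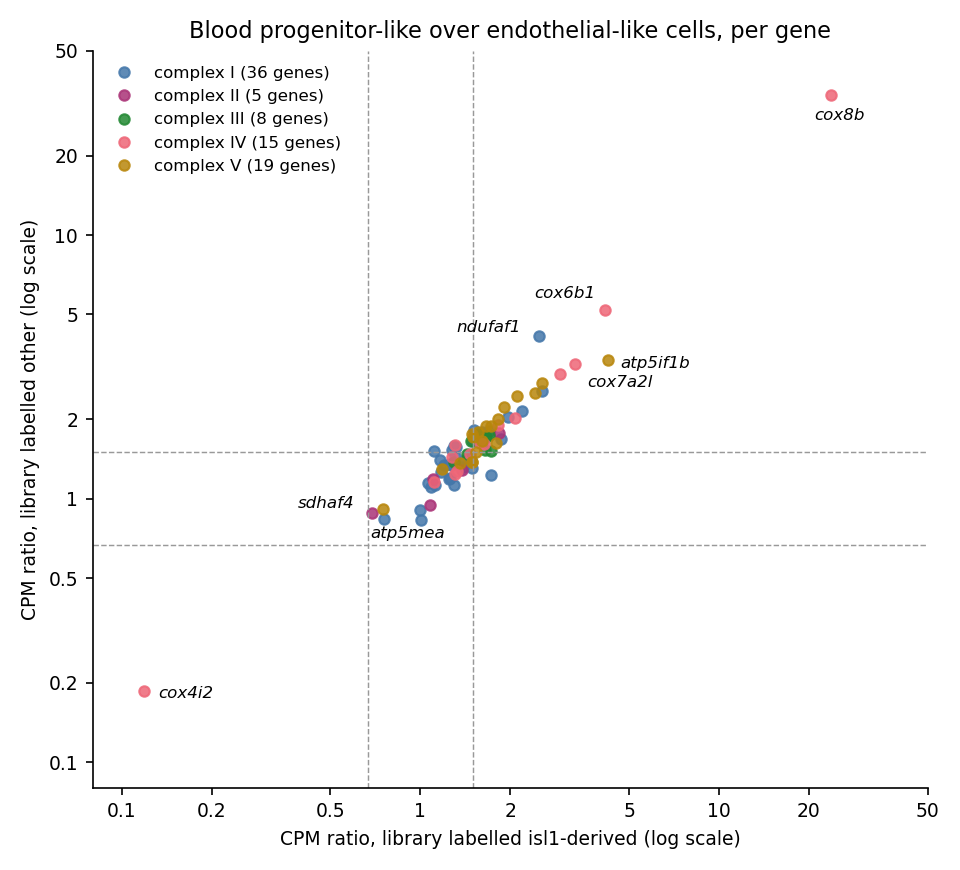
CPM ratio of blood progenitor-like over endothelial-like cells for each of the 83 measured genes in the library labelled isl1-derived (x axis, log scale) and the library labelled other (y axis, log scale), coloured by complex, with dashed lines at 1.5-fold in either direction. Most points lie between 1 and 3 in both libraries, cox8b lies apart at 23.7 and 33.8, and cox4i2 is the 1 gene past the lower line in both libraries, at 0.119 and 0.186.

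In complex I the higher genes included ndufab1b and ndufab1a, paralogues of the mitochondrial acyl carrier protein gene. The ratio of ndufab1b was 2.55 in both libraries. The assembly factor gene ndufaf1 had ratios of 2.50 (2.16 to 2.91) and 4.13 (2.82 to 6.03), and the membrane arm subunit gene ndufb11 2.20 and 2.16. Of the measured genes of the complex these were the farthest from 1. In complex II sdhdb alone was higher, at 127 against 69.3 CPM and 97.0 against 54.8 CPM, ratios of 1.84 (1.68 to 2.02) and 1.77 (1.34 to 2.32). The other 4 measured genes of the complex stayed short of 1.5-fold.

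In complex III the gene uqcrh, of the hinge protein that binds cytochrome c1, had ratios of 1.72 and 1.52. The core subunit gene uqcrc1 had 1.69 and 1.74, and uqcrc2a, uqcr10 and uqcrq were higher too. Complex V had the largest ratio of summed shares. The gene atp5mc3b, for the proton-carrying ring, stood at 599 and 523 CPM in endothelial-like, 857 and 749 CPM in haemogenic-like and 1527 and 1442 CPM in blood progenitor-like cells. It was the most counted of the 101 genes in blood progenitor-like cells of both libraries. Its ratio between blood progenitor-like and endothelial-like cells was 2.55 (2.48 to 2.63) and 2.76 (2.56 to 2.97). The beta subunit gene atp5f1b had ratios of 2.10 and 2.45, and the gamma subunit gene atp5f1c 1.91 and 2.23.

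The inhibitors of the ATP synthase, which block ATP hydrolysis when the proton gradient fails, were among the genes farthest from 1. The gene atp5if1b stood at 79.8 and 82.1 CPM in endothelial-like, 187 and 169 CPM in haemogenic-like and 339 and 276 CPM in blood progenitor-like cells. Its ratio was 4.24 (3.93 to 4.58) and 3.36 (2.81 to 4.02), and that of its paralogue atp5if1a 2.42 (2.29 to 2.55) and 2.52 (2.21 to 2.86). Thus atp5if1b held 30.9% and 30.5% of the UMIs of the pair in endothelial-like cells, 42.5% and 45.4% in haemogenic-like and 43.9% and 37.0% in blood progenitor-like cells.

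In complex IV the gene cox7a2l, whose mammalian product ties complexes III and IV into supercomplexes, stood at 74.0 and 70.1 CPM in endothelial-like and 243 and 227 CPM in blood progenitor-like cells. Its ratios were 3.29 (3.03 to 3.57) and 3.24 (2.66 to 3.94). The subunit gene cox5aa had 2.93 (2.78 to 3.08) and 2.98 (2.63 to 3.37), cox7b 2.07 and 2.02. Just past 1.5-fold lay atp5pd of the complex V stalk, at 1.54 and 1.504, and just short of it the ring gene atp5mc1, at 1.499 and 1.71. The lowest ratios beside cox4i2 were those of the complex II assembly factor gene sdhaf4 (0.691 and 0.886), of atp5mea (0.751 and 0.912) and of ndufc2 (0.756 and 0.837), none of which reached 1.5-fold.

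The largest ratio among the 83 measured genes was that of cox8b (ENSDARG00000097209), a paralogue of complex IV subunit 8. It stood at 14.6 CPM (12.4 to 17.2, 149 UMIs) and 9.97 CPM (7.06 to 13.7, 38 UMIs) in endothelial-like cells. In haemogenic-like cells it reached 289 CPM (263 to 318) and 209 CPM (162 to 266), and in blood progenitor-like cells 347 CPM (336 to 358) and 337 CPM (297 to 382). The ratio of blood progenitor-like over endothelial-like cells was 23.7 (20.1 to 28.1) and 33.8 (24.0 to 48.9). That of haemogenic-like over endothelial-like cells was 19.7 (16.4 to 23.9) and 21.0 (13.9 to 32.1). Haemogenic-like cells thus stood with the blood progenitors for this gene, while for the summed share they stood near endothelium.

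The paralogue cox8a was present throughout, at 411 and 383 CPM in endothelial-like, 443 and 474 CPM in haemogenic-like and 670 and 620 CPM in blood progenitor-like cells. Of the UMIs of both genes cox8b held 3.44% (2.92% to 4.03%) and 2.54% (1.80% to 3.46%) in endothelial-like cells, 39.5% and 30.6% in haemogenic-like and 34.1% and 35.2% in blood progenitor-like cells. Non-mitotic blood progenitor-like cells had more cox8b than mitotic ones, 455 and 370 CPM against 218 and 304 CPM, with intervals that overlapped in the library labelled other. Beyond them the level was 78.1 and 18.3 CPM in erythroid-like and 63.6 and 99.5 CPM in myeloid-like cells, the second value of each pair resting on 2 and 7 UMIs.

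A cox8b UMI was present in 94.5% and 90.2% of blood progenitor-like cells, in 73.0% and 59.5% of haemogenic-like cells and in 10.6% and 4.49% of endothelial-like cells. With each cell thinned to 2000 UMIs these shares were 46.4% and 47.5%, 30.3% and 25.7%, and 3.67% and 1.39%. Thinning left out 54 and 32 endothelial-like, 3 and 2 haemogenic-like and 5 and 1 blood progenitor-like cells. Mesenchyme-like cells, at a median of 9058 and 7897 UMIs, had a cox8b UMI in 0 of 22 and 0 of 12 cells, which, at 3 counts, allows shares with a UMI of up to 13.6% and 25% but does not limit the share of cells expressing the gene. In endothelial-like clusters cox8b ranged from 7.36 to 29.5 CPM and from 0 to 13.8 CPM in the libraries, and gfi1aa, a blood stem cell gene, stood there at up to 14.4 CPM against 164 and 160 CPM in non-mitotic blood progenitor-like cells. The part of free RNA in these low levels was not tested. The list of 16 muscle markers includes tnnt3a, which was also among the leading genes of an endothelial-like subcluster. That list summed to 19.0 and 37.2 CPM in blood progenitor-like cells, with 0 and 7 of its genes at 0, below the 135 and 238 CPM in endothelial-like cells. A troponin I gene outside that list, tnni4b.2, went the other way and was named after its values were seen. It led the non-mitotic blood progenitor-like cluster just before cox8b, and it stood at 3.34 and 5.77 CPM in endothelial-like, 59.8 and 125 CPM in haemogenic-like and 51.4 and 37.2 CPM in blood progenitor-like cells. The list of 9 erythroid markers summed to 262 and 232 CPM in blood progenitor-like against 99.98 and 32.3 CPM in endothelial-like cells, and that of 10 myeloid markers to 496 and 505 CPM against 624 and 521 CPM, and their part in the result was not tested.

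A further muscle-type name, cox6a2 (ENSDARG00000054588), was also higher in blood progenitor-like than in endothelial-like cells, although too little counted in the library labelled other (43 UMIs) to be measured. The name table at hand pairs this identifier with COX6A1, so its muscle identity is uncertain. It had 0.983 CPM (10 UMIs) and 0.787 CPM (3 UMIs) in endothelial-like cells and 13.1 CPM (20 UMIs) and 3.12 CPM (1 UMI) in haemogenic-like cells. In blood progenitor-like cells it reached 49.7 CPM (45.6 to 54.1) and 53.1 CPM (38.0 to 72.3), in 49.5% and 53.7% of cells against 0.816% and 0.562% of endothelial-like cells. After thinning the shares were 9.66% and 2.50% (1 of 40 cells) in blood progenitor-like cells and 0.0853% and 0 of 502 cells, which allows up to 0.598%, in endothelial-like cells. The highest level was that of the 24 myeloid-like cells labelled isl1-derived, at 170 CPM (143 to 201, 142 UMIs), while the 3 such cells of the library labelled other held 1 UMI. Its paralogue cox6a1 stayed the main form, as cox6a2 held 6.52% and 7.18% of the pair's UMIs in blood progenitor-like cells. The muscle-type gene cox7a1 stayed low in all 3 classes, between 2.89 and 13.8 CPM.

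The gene cox6b1 (ENSDARG00000045230) also differed between the classes, although its mammalian counterpart is the widespread form and COX6B2 the testis form. It stood at 40.8 and 33.6 CPM in endothelial-like, 116 and 93.7 CPM in haemogenic-like and 169 and 174 CPM in blood progenitor-like cells. The ratio of blood progenitor-like over endothelial-like cells was 4.15 (3.73 to 4.63) and 5.18 (4.03 to 6.66). Its part of the cox6b1 and cox6b2 UMIs was 7.79% and 6.60% in endothelial-like, 20.5% and 16.0% in haemogenic-like and 21.2% and 22.8% in blood progenitor-like cells.

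The 1 measured gene that was lower by 1.5-fold in both libraries was cox4i2 (ENSDARG00000022509), the counterpart of the mammalian COX4I2. It stood at 94.96 CPM (89.1 to 101) and 85.8 CPM (76.8 to 95.6) in endothelial-like cells, 82.8 CPM (69.0 to 98.6) and 56.2 CPM (33.3 to 88.8) in haemogenic-like cells and 11.3 CPM (9.34 to 13.4) and 15.9 CPM (8.24 to 27.8) in blood progenitor-like cells. The ratio of blood progenitor-like over endothelial-like cells was 0.119 (0.0973 to 0.143) and 0.186 (0.0950 to 0.329). For this gene haemogenic-like cells stood with the pooled endothelial-like cells in the library labelled isl1-derived, opposite to cox8b. In the library labelled other they stood lower, with overlapping intervals. After thinning a cox4i2 UMI was present in 18.5% and 2.86% (1 of 35 cells) of haemogenic-like and 16.1% and 14.5% of endothelial-like cells. In blood progenitor-like cells it was present in 1.84% and in 0 of 40 cells, which allows up to 7.5%. Single endothelial-like clusters varied, from 24.6 to 156 CPM and from 34.3 to 127 CPM. The lowest of them lay nearer to the non-mitotic blood progenitor-like cells (15.0 and 23.6 CPM). The main form cox4i1 had 581 and 555 CPM in endothelial-like and 644 and 643 CPM in blood progenitor-like cells, so cox4i2 made up 14.1% and 13.4% of the family's UMIs in the former and 1.72% and 2.41% in the latter. The unnamed cluster led by muscle genes held the most cox4i2, at 196 and 199 CPM. There the muscle marker list summed to 455 and 9537 CPM and the endothelial list to 6656 and 7600 CPM.

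**Figure D3:**
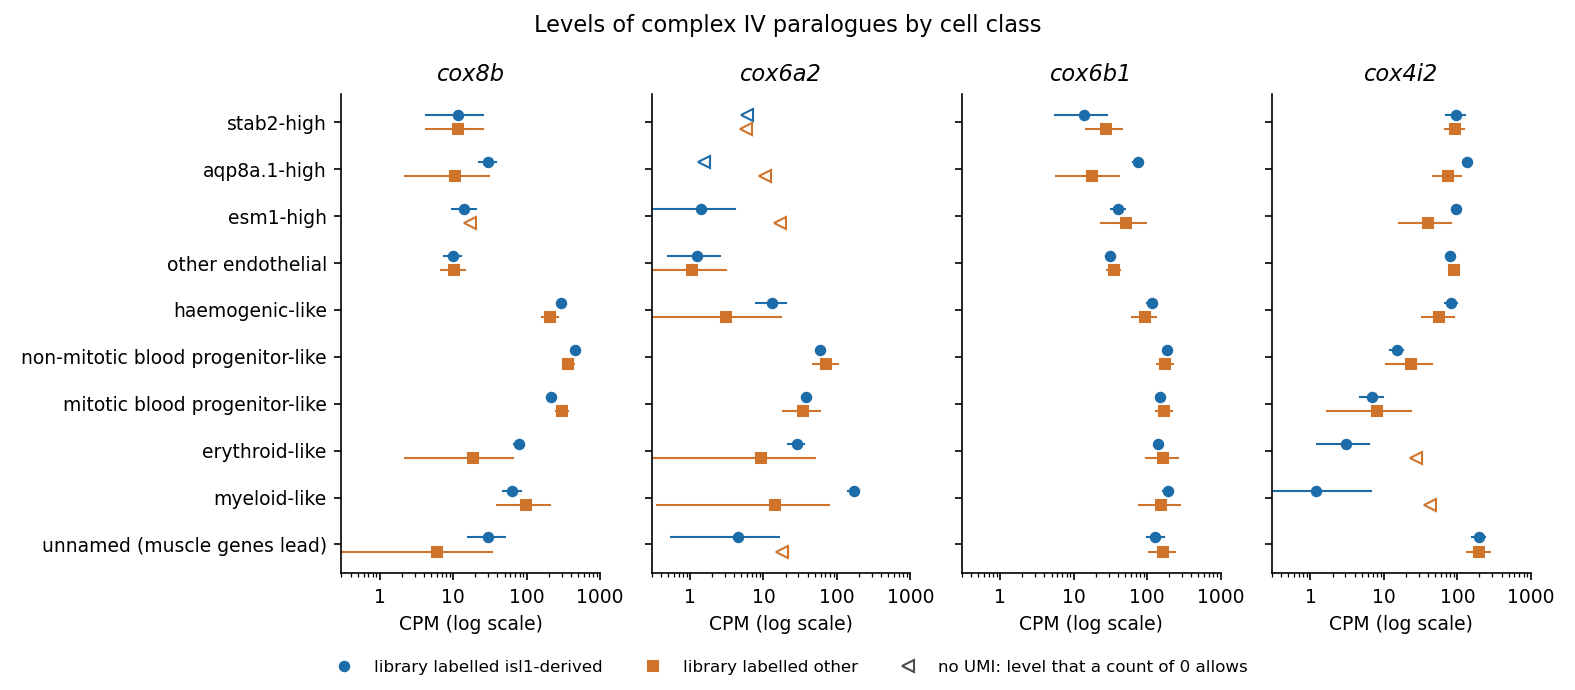
Levels of cox8b, cox6a2, cox6b1 and cox4i2 in CPM (x axes, log scale) by cell class and endothelial subset, for the library labelled isl1-derived (circles) and the library labelled other (squares), with exact 95% Poisson intervals as bars and open triangles for the level that a count of 0 allows. The gene cox8b is highest in haemogenic-like (289 and 209 CPM), non-mitotic (455 and 370 CPM) and mitotic blood progenitor-like cells (218 and 304 CPM). It is lower in erythroid-like (78.1 and 18.3 CPM) and myeloid-like cells (63.6 and 99.5 CPM). The gene cox6a2 stands at 59.2 and 70.9 CPM in non-mitotic and 38.5 and 35.0 CPM in mitotic blood progenitor-like cells. In erythroid-like cells it stands at 28.2 and 9.16 CPM. In the 24 and 3 myeloid-like cells it stands at 170 and 14.2 CPM. The gene cox4i2 is high in endothelial subsets and haemogenic-like cells, and highest in the unnamed cluster (196 and 199 CPM).

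In other families the paralogues kept closer proportions. Of the cox5aa and cox5ab UMIs cox5aa held 58.7% in both libraries in endothelial-like cells and 69.5% and 69.0% in blood progenitor-like cells. Among atp5mc1, atp5mc3a and atp5mc3b the last held 49.8% and 51.9% in endothelial-like and 60.2% and 61.5% in blood progenitor-like cells. Of the ndufa4 genes ndufa4l carried nearly all UMIs, with 363 and 348 CPM in endothelial-like and 483 and 442 CPM in blood progenitor-like cells, against 6.39 and 2.89 CPM and 13.1 and 13.3 CPM of ndufa4. Paralogues with similar 3' ends may share reads in the authors' counting, which the files do not resolve.

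Haemogenic-like cells differed little from endothelial-like cells beyond the paralogues. The summed share of haemogenic-like cells was 1.09-fold (1.07 to 1.103) and 1.14-fold (1.11 to 1.17) that of endothelial-like cells. Of 82 measured genes 3 were higher and none was lower, where 6.19% and 23.0% of all 5125 measured genes were. The 3 were cox8b, cox6b1 at ratios of 2.84 (2.36 to 3.39) and 2.79 (1.81 to 4.18), and atp5if1b at 2.34 (2.04 to 2.68) and 2.05 (1.51 to 2.75). Just short of 1.5-fold in both was cox5aa, at 1.66 and 1.44. The median log2 ratio of the 82 genes was 0.05 and 0.13, against −0.30 and −0.21 for all measured genes. Median UMIs per haemogenic-like cell were 11046 and 6242, and ribosomal protein genes held 31.8% and 28.2% of UMIs. Among the UMIs outside ribosomal protein genes the summed share was 2.42% and 2.24%, against 1.97% and 1.79% in endothelial-like cells. With every cell thinned to 2000 UMIs these 3 genes fell under 100 UMIs in the library labelled other and were no longer measured, and none of the 49 genes still measured was higher in both libraries. The thinned ratios were 12.1 (7.97 to 18.4) and 22.5 (7.98 to 68.6) for cox8b, 1.91 and 3.46 for cox6b1, and 2.20 and 1.29 (0.540 to 2.65) for atp5if1b.

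Set between both classes, haemogenic-like cells had a level between those of endothelial-like and blood progenitor-like cells for 51 and 61 of the 94 genes with at least 100 UMIs. They lay below both for 36 and 26 genes and above both for 7 and 7. In percent, 54.3% and 64.9% lay between, 38.3% and 27.7% below both and 7.45% and 7.45% above both. Over all 11820 and 11779 genes with as many UMIs, 61.9% and 50.9% lay between, 17.9% and 23.0% below both and 20.2% and 26.1% above both. Blood progenitor-like cells exceeded haemogenic-like cells 1.46-fold (1.44 to 1.48) and 1.45-fold (1.41 to 1.498) in summed share. Here 19 of 67 measured genes were higher and none was lower, near the 27.6% of all 1226 measured genes that were higher and unlike the 17.9% that were lower. The genes farthest from 1 were cox7a2l (1.89 and 3.46), cox5ab (1.81 and 2.15), atp5mc3b (1.78 and 1.93), ndufab1b (1.76 and 1.97) and cox5aa (1.76 and 2.08). At the limit stood cox7c, inside at 1.64 and 1.53, and atp5pd, outside at 1.62 and 1.49. For cox8b the ratio between these classes was 1.20 and 1.61.

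Within endothelium the summed share was lowest in the stab2-high subset. Endothelial-like cells were clustered again, and a subcluster was assigned to esm1 (a secreted proteoglycan gene of sprouting tip cells), aqp8a.1 (a water channel gene) or stab2 (a hyaluronan scavenger receptor gene of veins) where it reached at least 50% of that gene's highest subcluster level. The esm1-high subset (263 and 25 cells) had shares of 1.58% (1.56% to 1.59%) and 1.54% (1.48% to 1.60%). The aqp8a.1-high subset (239 and 39 cells) had 1.34% (1.32% to 1.36%) and 1.31% (1.27% to 1.35%). The stab2-high subset (109 and 95 cells) had 0.753% (0.729% to 0.777%) and 0.839% (0.814% to 0.864%). The rest of the endothelial-like cells had 1.63% and 1.52%. The esm1 gene stood at 2972 and 2450 CPM in its subset, aqp8a.1 at 15000 and 20280 CPM in its own and stab2 at 6141 and 6294 CPM in its own. The esm1-high subset also carried aqp8a.1, at 11985 and 11253 CPM, and was counted under esm1.

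The esm1-high subset exceeded the stab2-high subset 2.09-fold (2.03 to 2.17) and 1.84-fold (1.75 to 1.93), and the aqp8a.1-high subset exceeded it 1.78-fold (1.72 to 1.84) and 1.56-fold (1.49 to 1.63). Of 24 measured genes 20 were higher in esm1-high than in stab2-high cells and none was lower, where 20.8% and 32.7% of all 1084 measured genes were. For aqp8a.1-high cells 16 of 27 were higher and none lower, where 19.1% and 30.7% of 1236 were. These counts cover mainly complexes IV and V, since 0 complex I genes were measured in the first comparison and 3 in the second. In the first the ring gene atp5mc3a had ratios of 2.97 and 3.25, cox7a2a 3.77 and 2.35, cox8a 2.40 and 2.51, cox7c 2.21 and 2.33 and atp5f1b 2.68 and 2.08. At the limit stood atp5f1e, inside at 1.89 and 1.53, and cox6b2, outside at 1.76 and 1.49. In the second the stalk gene atp5pd had 2.26 and 1.93, atp5f1b 2.31 and 1.86, cox8a 1.82 and 1.98 and cox6a1 2.44 and 1.72, with atp5l inside the limit at 1.82 and 1.52 and atp5f1e outside at 1.67 and 1.45.

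The stab2-high subset is a single subcluster, led by scn5lab, with few UMIs per cell. Its median was 3876 and 4400 UMIs against 7780 and 6589 in esm1-high cells. Ribosomal protein genes held 14.1% and 14.6% of its UMIs against 21.5% and 19.9%, and mitochondrially encoded genes 1.51% and 1.19% against 1.24% and 1.02%. Its cells carried a median of 23 and 27 UMIs of the 101 genes, against 117 and 95 in esm1-high cells. The muscle marker list summed to 363 and 353 CPM there, against 135 and 238 CPM in all endothelial-like cells. Of that list mylpfa stood at 3.93 and 11.7 CPM and actc1b at 31.4 and 23.4 CPM in stab2-high cells. The levels of the other listed genes, tnnt3a among them, are not given, so the sum does not show which genes carry it. The part of depth and RNA content in the difference was not tested.

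A second subcluster with stab2 (177 and 155 cells), whose stab2 level of 2757 and 3389 CPM fell just under the limit, did not share the low value. Its share was 1.45% (1.43% to 1.46%) and 1.40% (1.38% to 1.42%), at a median of 9837 and 8334 UMIs and with ribosomal protein genes at 21.7% and 22.0%. It exceeded the stab2-high subset 1.92-fold and 1.67-fold, with 48 of 68 measured genes higher and none lower, where 17.4% and 24.7% of all 2579 measured genes were. The mitochondrially encoded share went the opposite way, at 0.548 and 0.611 times that of the stab2-high subset, with 8 of 10 measured genes lower. Against this second subcluster the esm1-high subset had 1.09-fold and 1.101-fold the share, with 0 of 66 measured genes higher and 1 lower, cox4i2 at 0.58 and 0.29, where 12.1% and 20.3% of 2133 measured genes were. With the limit lowered to 40%, chosen after seeing the data, both subclusters count as stab2-high, and the mean log2 ratio of both libraries fell from 0.97 to 0.30 for esm1-high and from 0.74 to 0.07 for aqp8a.1-high cells. Clustering with no barcode filter, with the stricter filter, with doublets kept, at Leiden resolution 2.0 or with the 101 genes among the variable genes gave larger stab2-high groups (176 to 320 and 182 to 269 cells) and mean log2 ratios of 0.12 to 0.38 and 0.06 to 0.19. The low share was thus measured in 1 of the 2 subclusters with the highest stab2.

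**Figure D4:**
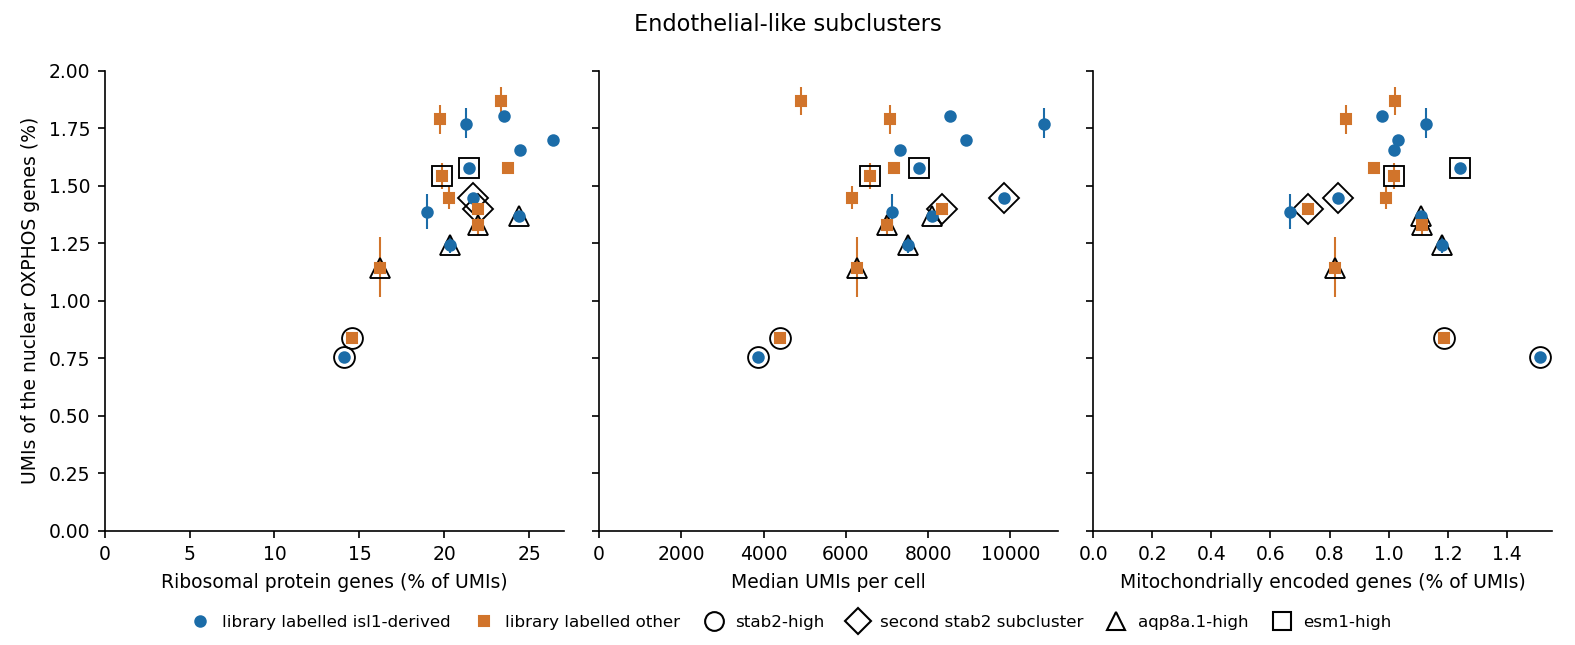
Share of the 101 genes (y axis, % of UMIs, exact 95% binomial bars) in each endothelial-like subcluster with at least 5 cells, against the share of ribosomal protein genes (left), the median UMIs per cell (middle) and the share of mitochondrially encoded genes (right), with open symbols marking the subsets named in the key. The stab2-high subcluster lies apart at 0.753% and 0.839%, with the fewest ribosomal protein UMIs and the lowest depth, while the second stab2 subcluster lies among the rest at 1.45% and 1.40%.

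Between the esm1-high and aqp8a.1-high subsets the share differed 1.18-fold in both libraries. One gene of 20 measured was higher in esm1-high cells, atp5mc3a at 1.58 (1.40 to 1.78) and 1.96 (1.34 to 2.88), and none was lower, where 9.70% and 9.08% of all 639 measured genes were. The paralogues cox8b and cox6a2 stayed far below their blood progenitor-like levels in each of the 3 subsets. The level of cox8b was 14.1 CPM and 0 UMIs (which allows 16.9 CPM) in esm1-high, 29.6 and 10.6 CPM in aqp8a.1-high and 11.8 and 11.7 CPM in stab2-high cells, and cox6a2 had 0 UMIs in stab2-high cells of both libraries, which allows 5.89 and 5.86 CPM. By contrast cox4i2 was present in each, at 96.6 and 39.5 CPM in esm1-high, 136 and 74.4 CPM in aqp8a.1-high and 96.2 and 91.8 CPM in stab2-high cells. In aqp8a.1-high cells cox6b1 stood at 75.4 CPM (145 UMIs) and 17.7 CPM (5 UMIs).

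Between the libraries the 101 genes differed little. In endothelial-like cells the share was 1.08-fold (1.07 to 1.09) that of the library labelled other, and 0 of 86 measured genes passed 1.5-fold in either direction, where 5.32% and 8.06% of all 9082 measured genes were higher and lower. In blood progenitor-like cells it was 1.04-fold (1.02 to 1.05) with 0 of 90 genes past 1.5-fold, where 6.89% and 10.1% of 7021 genes were. The stab2-high subset made up 109 of the 1226 and 95 of the 534 endothelial-like cells. There the share ran the other way, at 0.753% and 0.839%, while the remaining endothelial-like cells kept the order, at 1.63% and 1.52%. The esm1-high and aqp8a.1-high subsets kept it in summed share only, with overlapping intervals of the libraries. Their medians per cell ran the other way, at 1.47% and 1.55% and at 1.24% and 1.31%. The part of subset composition in the 1.08-fold ratio was not tested. The gene with the largest ratio in endothelial-like cells was cox8b, at 1.47 (1.02 to 2.16). In endothelial-like clusters the myeloid marker lyz stood at 63.9 to 87.2 CPM and at 0 to 10.8 CPM in the libraries. The part of free RNA in the cox8b ratio was not tested. In blood progenitor-like cells ndufaf2 had 1.39 (0.78 to 2.74) and cox4i2 0.71 (0.39 to 1.40). TMM scaling shifts every log2 ratio between the libraries upward by 0.57 in blood progenitor-like cells, and 52 of the 101 genes then rose past 1.5-fold. The shift applies to all genes alike. The share of all genes past 1.5-fold under TMM is not given, so this count has no background.

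Other genes of the pathway did not all move with the nuclear subunits between blood progenitor-like and endothelial-like cells. In this comparison 18.8% of all 5517 measured genes were higher and 49.8% lower. Of the 13 mitochondrially encoded subunit genes 12 were measured, none higher and 1 lower, mt-cyb at 0.58 and 0.57, and their summed share was 0.773 (0.766 to 0.780) and 0.817 (0.794 to 0.840) times that in endothelial-like cells. Cytochrome c, which carries electrons from complex III to IV, was higher, with cycsb at 187 and 167 CPM in endothelial-like and 638 and 592 CPM in blood progenitor-like cells (ratios of 3.42 and 3.55), as was cyc1 of complex III (1.73 and 1.74). Of 31 listed assembly factor genes outside the symbol rule 14 were measured, 8 of them higher and 1 lower. The copper chaperone gene cox17 of complex IV had ratios of 8.77 and 5.73, the complex I factor gene tmem126a 3.40 and 3.37, and coa5, a complex IV factor gene, was the lower one at 0.24 and 0.30.

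Among 16 measured genes of the citric acid cycle 5 were higher and none lower, with suclg2 at 3.89 and 3.64, idh2 at 2.38 and 3.45 and mdh2 at 1.62 and 1.77. Of 6 measured biogenesis genes 3 were higher, the coactivator gene pprc1 at 13.4 and 16.4, ppargc1b at 2.54 and 1.68 and the mitochondrial DNA packaging factor gene tfam at 1.89 and 2.64. Of 6 measured carriers and channels the outer membrane channel genes vdac1 (1.86 and 2.39) and vdac2 (1.88 and 2.16) were higher and vdac3 (0.36 and 0.34) and ucp2 (0.51 and 0.60) lower, while the ADP/ATP carrier gene slc25a5 had 1.14 and 1.17. Of 13 measured glycolysis genes 5 were higher and 2 lower, with a median log2 ratio of 0.73 and 0.40. The shares over all measured genes, for each of these lists, were 18.8% higher and 49.8% lower. The hexokinase gene hk2 had ratios of 12.4 and 23.3 and pgam1a 5.34 and 4.78, whereas gapdhs had 0.40 and 0.34 and the phosphofructokinase gene pfkpa 0.35 and 0.29. In haemogenic-like cells cox17 was higher than in endothelial-like cells as well, at 3.95 and 2.26.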

How the data were processed

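The deposited values are raw UMI counts for each gene in each barcode, which the authors made with Cell Ranger (5.0.0 per the submitters' processing notes, 5.0.1 per the file headers) on GRCz11. Features that share a symbol were summed, 0 of them members. Barcodes under 500 genes or from 10% mitochondrial UMIs upward were dropped, doublets were called with Scrublet in scanpy 1.11.5 and removed, and 2000 variable genes without the 101 members, 30 principal components, 15 neighbours and Leiden resolution 1.0 (leidenalg 0.10.2) gave 17 clusters, and 10 endothelial subclusters. A marker counted as present where 25% of a cluster's cells held it and its level reached 25% of the highest cluster, and clusters were named from 15 marker lists. Intervals are exact at 95%: Poisson for CPM, Clopper-Pearson for shares, conditional binomial for ratios. A count of 0 was bounded with 3 counts. Log2 ratios had 0.5 added to each count. TMM factors came from edgeR 4.0.16 in R 4.3.3. The ratio step was tested on simulated data. Named genes are all listed paralogues, per comparison up to 12 genes past 1.5-fold with those at the limit, the 3 most and the least counted per complex, and up to 5 per pathway list, some left out for length. Levels per cluster and of gfi1aa and lyz were chosen after their values were seen. Members, lists and the share comparison of both libraries were chosen with earlier results of these data known. Of the members 101 identifiers were in the name table, 85 with the same symbol. No coordinates are given, because the annotation at hand is of another assembly.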

Additional observations from a re-analysis of the deposited data

How the results depend on the processing

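No mean log2 ratio of shares changed sign under the alternatives run. For blood progenitor-like over endothelial-like cells (0.70) it was 0.81 with the stricter barcode filter (1000 genes, 5% mitochondrial UMIs), 0.65 with doublets kept, 0.61 at Leiden resolution 0.5, 0.97 with TMM, 1.02 without ribosomal protein genes and 0.75 with thinning to 2000 UMIs. Alternatives chosen after seeing the data gave 0.65 without mitotic clusters and 0.60 with haemogenic-like cells counted as blood progenitors.

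For esm1-high over stab2-high cells (0.97) it was 0.31 with no barcode filter, 0.38 with the stricter one, 0.29 with doublets kept, 0.12 at Leiden resolution 2.0, 0.18 with members among the variable genes, 1.23 with TMM, 0.64 with cells split by their own UMIs and 0.30 with the subset limit at 40%. For aqp8a.1-high over stab2-high cells (0.74) the values in the same order were 0.19, 0.16, 0.06, 0.17, 0.15, 1.06, 0.09 and 0.07, and 0.88 without ribosomal protein genes. At Leiden resolution 0.5 there was no haemogenic-like class. Splitting cells by their own UMIs left 15 and 1 esm1-high, 230 and 29 aqp8a.1-high and 304 and 227 stab2-high cells. The value of 0.64 thus rests on 1 esm1-high cell in the library labelled other.

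Counts of genes past 1.5-fold moved as follows. They cover the members only, and shares over all genes under the alternatives are not given. In blood progenitor-like over endothelial-like cells 36 higher became 65 without ribosomal protein genes and 20 with thinning, where the 1 lower became 0, since cox4i2 fell under the UMI minimum in the library labelled other (0 and 88 UMIs) at a ratio of 0.0971 (0.0414 to 0.195) in the library labelled isl1-derived. In haemogenic-like over endothelial-like cells 3 higher became 1 with doublets kept or a minimum of 300 UMIs, 5 without ribosomal protein genes, 0 with thinning (where all 3 fell under the UMI minimum in the library labelled other, cox8b at ratios of 12.1 and 22.5) and 9 in the library labelled isl1-derived alone. There 0 lower became 1 with no barcode filter, with members among the variable genes or in that library alone, 2 with doublets kept or at resolution 2.0, and 6 in the library labelled other alone.

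In esm1-high over stab2-high cells 20 higher became 1 with no barcode filter, at resolution 2.0 or with a minimum of 300 UMIs, 7 with the stricter filter, 6 with doublets kept, 3 with members among the variable genes, 0 with thinning (none measured), 46 with a minimum of 30 UMIs, 9 with cells split by their own UMIs, 5 with the limit at 40% and 70 in the library labelled isl1-derived alone. There 0 lower became 2 with doublets kept and 1 with the stricter filter, resolution 2.0, members among the variable genes, cells split by their own UMIs or the limit at 40%. The counts for cells split by their own UMIs rest on 15 and 1 esm1-high cells. In aqp8a.1-high over stab2-high cells 16 higher became 1 with the stricter filter, 40 and 3 with minimums of 30 and 300 UMIs, 61 in that library alone, and 0 with no barcode filter, doublets kept, resolution 2.0, members among the variable genes, thinning, cells split by their own UMIs or the limit at 40%.

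Between the libraries, endothelial-like cells had 2 higher at resolution 0.5 or with a minimum of 30 UMIs, which also gave 2 lower, and 1 higher at resolution 2.0, with TMM, doublets kept, members among the variable genes or ribosomal protein genes out. Blood progenitor-like cells had 52 higher with TMM, 10 higher and 4 lower with thinning, and 2 higher and 1 lower with the stricter filter. They had 1 of each at resolution 0.5 or with a minimum of 30 UMIs. They had 1 higher without mitotic clusters or with haemogenic-like cells added, and 1 lower with doublets kept or members among the variable genes. These counts between the libraries also cover the members only and have no background.

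Over all alternatives the mean log2 ratio of cox8b lay between 3.61 and 5.13 for blood progenitor-like over endothelial-like cells, and that of cox4i2 between −3.55 and −1.92. No paired analysis was possible between the libraries because each group is 1 library, and a paired fit of cell classes over both libraries was not made. The stab2-high counts moved both with the UMI minimum and with the cells counted as stab2-high.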
